A study of Mus musculus with 8 samples.

Results

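The metabotropic glutamate receptor genes examined here were Grm2, Grm3, Grm4, Grm5, Grm7 and Grm8. They were taken by gene symbol, whatever their values, as 6 of the 55450 genes in the count tables. Nuclei carrying a fluorescent protein were sorted from the cortex of individual juvenile mice, and the RNA of these nuclei was sequenced, 1 mouse per library. Control mice were Thra+/+ and mutant mice were Thra+/AMI, an allele of Thra that encodes a dominant-negative thyroid hormone receptor. A Cre driver limited the mutant allele to GABAergic neurons, and it also switched on the nuclear fluorescent reporter by which nuclei of both groups were sorted. The gene that drives Cre and the age in days are not given in the sources used here. Mutants 7 and 10 had identical counts in all 55220 genes that could be matched by symbol, and they entered the comparison as 1 sample. Which of those mice gave the counts is not known, and the sample is called mutant 7 here. The comparison was therefore between 4 controls (mice 1 to 4) and 3 mutants (mice 6, 7 and 8).

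Metabotropic glutamate receptors are G protein-coupled receptors that adjust how strongly neurons and synapses respond to glutamate. Group I receptors, such as the product of Grm5, couple to Gq, which drives phospholipase C, inositol trisphosphate and calcium release, and they sit mostly in the postsynaptic membrane. Group II (Grm2 and Grm3) and group III (Grm4, Grm6, Grm7 and Grm8) couple to Gi/o, which lowers cyclic AMP, and many of them reduce transmitter release from presynaptic terminals. In the cortex Grm3 is also known from astrocytes, and Grm6 is known mainly from the retina.

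Total counts were between 10747169 and 13804734 reads per library. Levels are given as CPM, with library sizes scaled by TMM, and 1 CPM was worth 10.9 to 13.2 reads in the 7 libraries. The GABAergic genes Gad1 (520.1 to 664 CPM) and Gad2 (367 to 497 CPM) were abundant in all 7 libraries, whereas Slc17a7 of glutamatergic neurons was at 46.9 to 94.5 CPM. Thra, the mutated gene, averaged 114 CPM (SD 9.35, n = 4) in the control and 87.5 CPM (SD 9.39, n = 3) in the mutant libraries. Its log2 fold change was -0.39 with an edgeR adjusted p of 0.0543, which misses the threshold of 0.05. Long genes took a smaller share of counts in control 1 and a larger one in control 4: for genes spanning over 500 kb the median log2 deviation from the gene's own mean was -0.55 in control 1 and 0.6 in control 4, and -0.14 to 0.12 in the other 5 libraries. Control 4 and mutant 8 had 4 and 3 reads from 4 Y-linked genes, and the other libraries 5094 to 6644. Of the 6 receptor genes, 3 (Grm5, Grm7 and Grm8) span over 500 kb. Results are given with and without controls 1 and 4 and mutant 8.

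All 6 receptor genes passed the filter on low counts. Levels of different genes were compared as CPM per kb of annotated exon. Grm7 and Grm5 had the highest levels by this measure, at 80.6 ± 37.4 and 76.2 ± 17.7 in controls (SD, n = 4), and their ranges over the libraries overlapped (47.1 to 134 and 56 to 96.8). Grm3 followed with 28.2 ± 11.2 in controls and a range of 17.5 to 49.3 that reached the lowest value of Grm7 but not of Grm5. Grm8 (7.57 ± 2.2), Grm4 (3.66 ± 0.723) and Grm2 (1.52 ± 0.341) stood lower, and the ranges of these 3 genes did not overlap with each other over the 7 libraries. The order rested on the choice of length. Per kb of genomic span, Grm5 was first (mean over the 7 libraries 1.48 CPM per kb), Grm2 second (0.657) and Grm8 last of the 6 (0.0983), and whether reads in introns were counted is not given in the sources used here. Grm6 had 0 to 3 reads per library, was not tested and gets no fold change, since 3 reads is the limit that a count of 0 allows.

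**Figure D1:**
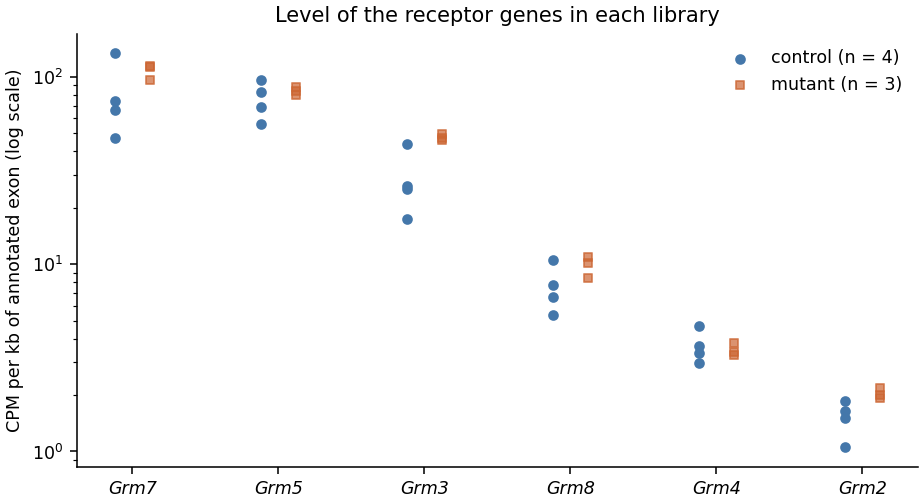
CPM per kb of annotated exon (log scale) for the 6 receptor genes, with 1 point for each of 4 control (circles) and 3 mutant libraries (squares). Grm7 and Grm5 lie highest and Grm2 lowest, and the controls spread more widely than the mutants in each gene.

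The comparison of mutant with control nuclei asked whether blocking the thyroid hormone response in GABAergic neurons altered these receptors. None of the 6 genes had an adjusted p under 0.05 (edgeR quasi-likelihood test, Benjamini-Hochberg adjustment over 16448 tested genes), and 1, Grm3, had an unadjusted p under 0.05. Over all tested genes 9.42% were called, and 3709 had an unadjusted p under 0.05. The log2 fold changes of mutant over control were above 0 in 5 genes and below 0 in Grm4, with a median of 0.40 over the 6 genes beside -0.01 over all tested genes. Control and mutant values did not overlap in 2 of the 6 genes, Grm2 and Grm3, where 22.0% of all tested genes had groups that did not overlap. The spread lay mainly in the controls, with coefficients of variation of 19.8% to 46.4% over the 6 genes, against 3.7% to 12.6% in the mutants. In bulk nuclei, fewer cells of a type and less RNA per cell cannot be told apart.

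**Figure D2:**
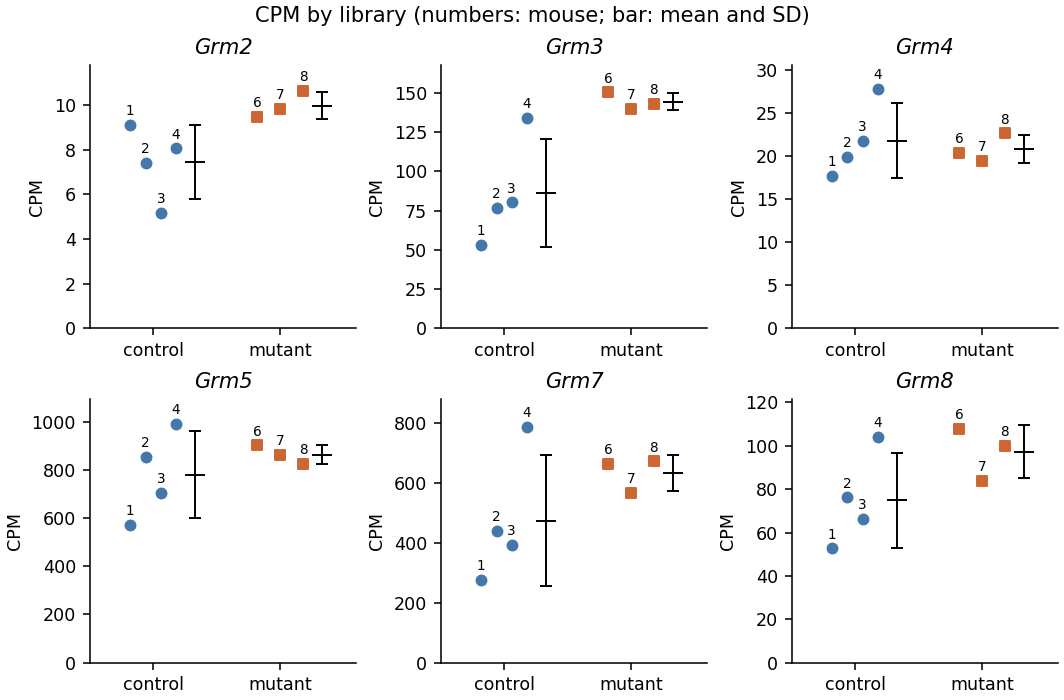
CPM of each receptor gene in 4 control (circles) and 3 mutant libraries (squares), on axes that start at 0, with the mouse number beside each point and the mean and SD as a bar. In Grm3 the mutants lie between 139.9 and 150.2 CPM, above the highest control at 134 CPM, while in Grm4, Grm5, Grm7 and Grm8 the groups overlap.

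Grm3 encodes a group II receptor and lies on chromosome 5 (GRCm38, 9485541 to 9725170, minus strand, a span of 239.6 kb with 6 exon blocks, ENSMUSG00000003974.6). It was at 53.4, 76.6, 80.2 and 134 CPM in controls 1 to 4, and at 150.2, 139.9 and 143 CPM in mutants 6, 7 and 8. All 3 mutants lay above all 4 controls, although control 4 came within 5.69 CPM of the lowest mutant. The control mean was 86.1 ± 34.2 CPM (SD, n = 4) and the mutant mean 144 ± 5.29 CPM (SD, n = 3), from 673 to 1920 reads per library. The log2 fold change was 0.75 (SE 0.23, 95% interval 0.25 to 1.24), with an edgeR adjusted p of 0.0631, which misses the threshold. Without control 4, the highest control, the log2 fold change was 1.04 and the edgeR adjusted p 5.74e-05. Leaving out the highest control by itself raises the fold change. Without control 1, the lowest control, the log2 fold change was 0.58 and the edgeR adjusted p 0.0563. Without controls 1 and 4 the log2 fold change was 0.88 (SE 0.10, edgeR adjusted p 7.59e-08). DESeq2 called the gene with all 7 libraries (0.75, adjusted p 0.0257).

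Grm2, the other group II gene, is short, with a span of 13 kb on chromosome 9 (106643095 to 106656082, minus strand, ENSMUSG00000023192.12). It is known as an autoreceptor of glutamatergic terminals. Its values were 9.12, 7.41, 5.18 and 8.07 CPM in controls 1 to 4, and 9.47, 9.82 and 10.6 CPM in mutants 6, 7 and 8. The mutants again lay above every control, but by 0.35 CPM only at the nearest pair, control 1 and mutant 6. The log2 fold change was 0.42 (SE 0.21, 95% interval -0.03 to 0.88, edgeR adjusted p 0.263), and it rested on 68 to 136 reads per library. Of its annotated exon bases, 9.6% are shared with the antisense gene Gm28111 on the opposite strand. Gm28111 itself was given 0 to 1 reads per library.

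The promoters of these 2 genes are shown because theirs were the groups that did not overlap. Each window holds the 250 bases before the RefSeq transcription start (GRCm38.p6), with CG dinucleotides in capitals. The windows are chr5:9725353-9725602 for Grm3 and chr9:106656110-106656359 for Grm2, both on the minus strand.
Grm3: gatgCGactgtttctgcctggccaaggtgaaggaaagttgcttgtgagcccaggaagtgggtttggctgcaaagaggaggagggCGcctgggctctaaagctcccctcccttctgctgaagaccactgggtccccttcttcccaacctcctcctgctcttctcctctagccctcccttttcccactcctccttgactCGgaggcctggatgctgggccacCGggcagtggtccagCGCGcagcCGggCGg
Grm2: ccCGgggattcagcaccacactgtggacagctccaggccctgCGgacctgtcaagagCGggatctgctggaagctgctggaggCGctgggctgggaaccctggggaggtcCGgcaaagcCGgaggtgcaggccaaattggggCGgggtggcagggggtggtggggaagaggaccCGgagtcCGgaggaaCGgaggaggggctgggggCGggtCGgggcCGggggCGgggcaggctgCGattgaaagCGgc
The Grm3 window holds 8 CG dinucleotides and 62.4% G or C, and the Grm2 window 16 and 71.2%, beside medians of 6 and 52.4% over 32851 promoter windows of that length. Thyroid hormone receptors are known to bind the letters AGGTCA, often as a direct repeat with a spacer of 4 bases. AGGTCA alone and this repeat, in which any bases may stand in the spacer, were searched on both strands, and each match of the repeat also counts as matches of AGGTCA. RefSeq promoters were matched for 4 of the 6 genes (Grm2, Grm3, Grm7 and Grm8, 7 windows in all), and for Grm4 and Grm5 none was. Grm7 and Grm8 each had more than a single window, and those of Grm7 overlap, so the 7 windows are not separate sequences. AGGTCA was in 0 of the 7 windows and in 14% of all windows, and the repeat was in 0 of the 7 and in 5 of all 32851. The absence of these letters from the windows is a description only.

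Grm5, the member of group I and the most abundant of the 6 genes in CPM, spans 550.7 kb of chromosome 7 (87584168 to 88134907, plus strand, ENSMUSG00000049583.15). It was at 573, 855, 705 and 992 CPM in controls 1 to 4, and at 902, 863 and 825 CPM in mutants 6, 7 and 8. The mutants lay inside the range of the controls. The log2 fold change was 0.14 (SE 0.19, 95% interval -0.27 to 0.56, edgeR adjusted p 0.73), an interval that runs from 0.83 to 1.47 times the control level.

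Grm7 encodes the group III receptor known from presynaptic active zones. It has the longest span of the 6 genes, 921.6 kb on chromosome 6 (110645581 to 111567230, plus strand, ENSMUSG00000056755.13). It was at 277, 439.6, 392.5 and 788 CPM in controls 1 to 4, and at 664, 566 and 672 CPM in mutants 6, 7 and 8. Each mutant was above controls 1, 2 and 3 and below control 4. The log2 fold change was 0.42 (SE 0.28, 95% interval -0.18 to 1.02, edgeR adjusted p 0.423). Without control 4, the highest control, it was 0.78, with an edgeR adjusted p of 0.00335. Without control 1, the lowest control, it was 0.24, with an edgeR adjusted p of 0.572.

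Grm8, also of group III, lies on the same chromosome (27275119 to 28135178, minus strand, a span of 860.1 kb, ENSMUSG00000024211.15). It was at 52.7, 76.2, 66.4 and 104 CPM in controls 1 to 4, and at 108, 83.9 and 100.1 CPM in mutants 6, 7 and 8. As in Grm7, all mutants were above controls 1, 2 and 3, but control 4 lay above mutants 7 and 8. The log2 fold change was 0.38 (SE 0.19, 95% interval -0.03 to 0.79, edgeR adjusted p 0.268). Without control 4, the highest control, it was 0.58, with an edgeR adjusted p of 0.00781. Without control 1, the lowest control, it was 0.25, with an edgeR adjusted p of 0.354.

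Grm4, the third group III gene, spans 99 kb of chromosome 17 (27422387 to 27521403, minus strand, ENSMUSG00000063239.17). It was at 17.8, 19.95, 21.9 and 27.8 CPM in controls 1 to 4, and at 20.4, 19.5 and 22.7 CPM in mutants 6, 7 and 8. The mutants lay inside the range of the controls. The log2 fold change was -0.07 (SE 0.16, 95% interval -0.42 to 0.29, edgeR adjusted p 0.872), and its sign turned without control 4 (0.07, edgeR adjusted p 0.809).

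Controls 1 and 4 differed more in the longer genes than in the short Grm2, but not in the order of genomic length. Grm3, with a span of 239.6 kb, differed more than Grm8, with 860.1 kb. From control 1 to control 4 the log2 difference was 1.51 for Grm7, 1.33 for Grm3, 0.98 for Grm8, 0.79 for Grm5 and 0.65 for Grm4, and it was -0.18 for the short Grm2. An offset that removes each library's curve of log2 CPM on genomic length was added to the edgeR fit. The coefficient of variation over controls went from 46.4% to 5.6% for Grm7, from 39.7% to 14.8% for Grm3 and from 29.1% to 9.9% for Grm8. For Grm5 the offset turned control 4 from the highest control into the lowest, at 646 length-adjusted CPM beside 767 to 845 in the other 3. For Grm8 the order of these libraries turned as well: control 4 became the lowest control at 64.1 length-adjusted CPM and control 1, the lowest before, became the highest at 81.9.

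**Figure D3:**
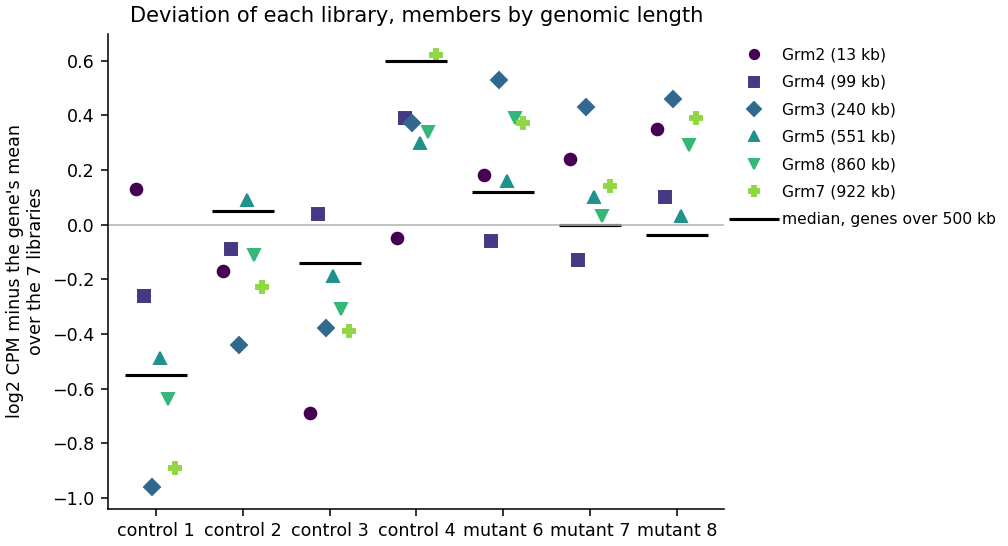
Log2 CPM of each receptor gene minus that gene's mean over the 7 libraries, with 1 symbol per gene and the median of genes spanning over 500 kb as a black bar. Control 1 lies at the bottom for the 5 longer genes and control 4 above the other controls, as the black bars do, at -0.55 and 0.6; Grm2, which spans 13 kb, does not follow them.

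With the length offset 3 of the 6 genes were called, all higher in mutants, where 16.4% of all tested genes were called. Among genes spanning over 100 kb this fit called 29.2%, and the edgeR fit without the offset called 13.3%. Length-adjusted Grm3 was at 71 to 98.3 CPM in controls and 142 to 145 CPM in mutants, which differed by 0.80 on the log2 scale (SE 0.11, edgeR adjusted p 5.02e-05). Grm7 was at 426 to 480.4 CPM in controls and 588 to 694 CPM in mutants (log2 fold change 0.51, SE 0.10, edgeR adjusted p 0.00114). Grm8 was at 64.1 to 81.9 CPM in controls and 87.1 to 103 CPM in mutants (log2 fold change 0.40, SE 0.10, edgeR adjusted p 0.0123). In these 3 genes and in Grm2 the length-adjusted groups did not overlap. The share of all tested genes without overlap after the offset was not computed, so this count has no baseline. Without the offset that share was 22.0%. Grm2 (0.45, edgeR adjusted p 0.146), Grm5 (0.15, edgeR adjusted p 0.381) and Grm4 (-0.06, edgeR adjusted p 0.822) were not called.

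**Figure D4:**
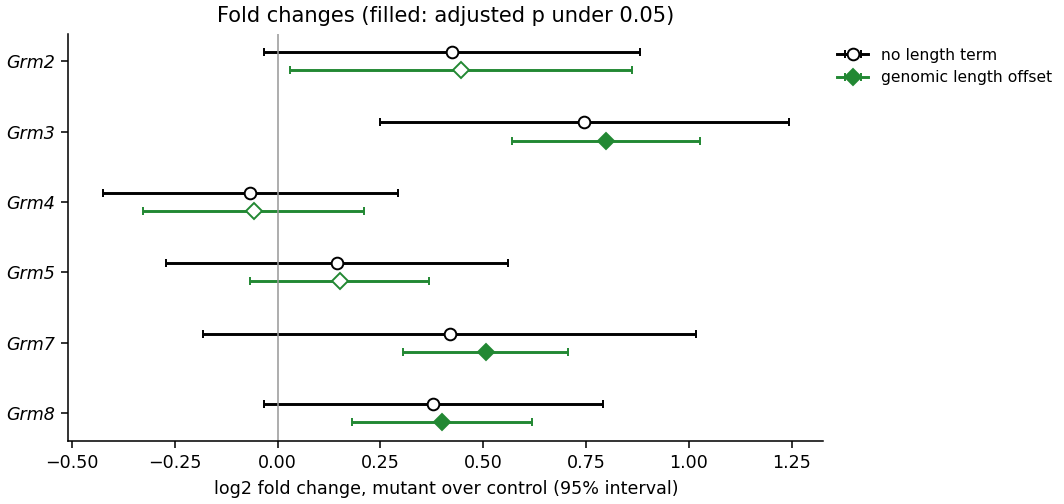
Log2 fold change of mutant over control with its 95% interval for the 6 receptor genes, from the edgeR fit without a length term (circles) and with the genomic length offset (diamonds); filled symbols have an adjusted p under 0.05. The estimates differ by at most 0.09 between the fits, while with the offset the intervals of all 6 genes are narrower and those of Grm2, Grm3, Grm7 and Grm8 lie above 0.

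The count of called receptor genes moved with control 4. Without control 4 it was 3 of 6, where 14.5% of all tested genes were called, whereas it was 0 of 6 without control 1 or any other single library. Over all tested genes 2038 of 16264 were called without control 1, 1046 of 16236 without control 2 and 1016 of 16261 without control 3. With 1 mutant left out 734 to 816 genes were called. All these totals were below the 2347 of 16242 called without control 4. Without controls 1 and 4 the receptor count was 4 of 6, where 16.7% of all tested genes were called. Leaving out control 4 and mutant 8, the libraries with almost no Y-linked reads, gave 3 of 6 with 8.53% of all genes called. In limma-voom with sample quality weights 4 of 6 were called and 19.1% of all genes, and in DESeq2 1 of 6 and 11.1%. Grm3 was among the called genes in each of these 5 analyses that called any, and also in the fit with the length offset. Every call of a receptor gene was in the direction of higher values in mutants. These analyses share libraries and are not separate evidence.

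Genes through which the receptors act were described from 5 lists of 80 genes, Grm6 included, 73 of them tested. In edgeR's test 6 of the 73 were called (8.22%, beside 9.42% of all tested genes), 3 higher and 3 lower. In the Gq pathway of group I receptors 1 of 19 tested genes was called, and the median log2 fold change was -0.14. Itpr1, the inositol trisphosphate receptor that releases calcium from the endoplasmic reticulum, fell from 338 ± 38.4 CPM (SD, n = 4) to 151 ± 16.7 CPM (SD, n = 3). Its log2 fold change was -1.17 (SE 0.14, edgeR adjusted p 0.000259), and the mutants (136 to 169 CPM) lay well below the controls (298 to 383 CPM).

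In the Gi/o pathway of group II and III receptors 2 of 20 tested genes were called, with a median log2 fold change of 0 over the list. Kcnj9, a subunit of the G protein-gated potassium channels, fell by 1.42 on the log2 scale (SE 0.14, edgeR adjusted p 7.15e-05). It was at 150.4 ± 15.8 CPM (SD, n = 4) without and 56 ± 9.33 CPM (SD, n = 3) with the mutation. Gnb4, a G protein beta subunit, rose by 0.79 (SE 0.14, edgeR adjusted p 0.00426), with means of 68.5 ± 11.6 and 119 ± 16.2 CPM. Gnb2, Gnaz and Gng3 were listed at 0 in all 7 libraries and Kcnj5 did not pass the filter, so these 4 were not tested. In the annotation Gnb2 overlaps 3 other genes, Gnaz 1 and Gng3 2, so their zeros are not read as absence of RNA. Whether the overlap set these counts to 0 was not tested. Among scaffolds, regulators and partners, such as the Homer and Shank proteins that anchor group I receptors, 2 of 24 tested genes were called and the median was 0.06. Both were regulators of G protein signalling that rose: Rgs2 (log2 fold change 0.73, SE 0.14, edgeR adjusted p 0.00529) and Rgs14 (1.21, SE 0.26, edgeR adjusted p 0.0131), the latter from 30 to 109 reads per library. Of 10 tested genes of glutamate uptake and vesicular loading 1 was called, Slc17a8, a vesicular glutamate transporter, which fell by 0.98 on the log2 scale (SE 0.26, edgeR adjusted p 0.0364) from 29 to 117 reads per library. The median of that list was -0.05. Slc17a8 lost the call when mutant 6, 7 or 8, or control 2 or 3, was left out, with edgeR adjusted p-values up to 0.168. Rgs14 lost it without mutant 8 (1.05, edgeR adjusted p 0.0842), and both genes lost it without control 4 and mutant 8 together. Itpr1, Kcnj9, Gnb4 and Rgs2 were called in all 15 alternative fits.

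**Figure D5:**
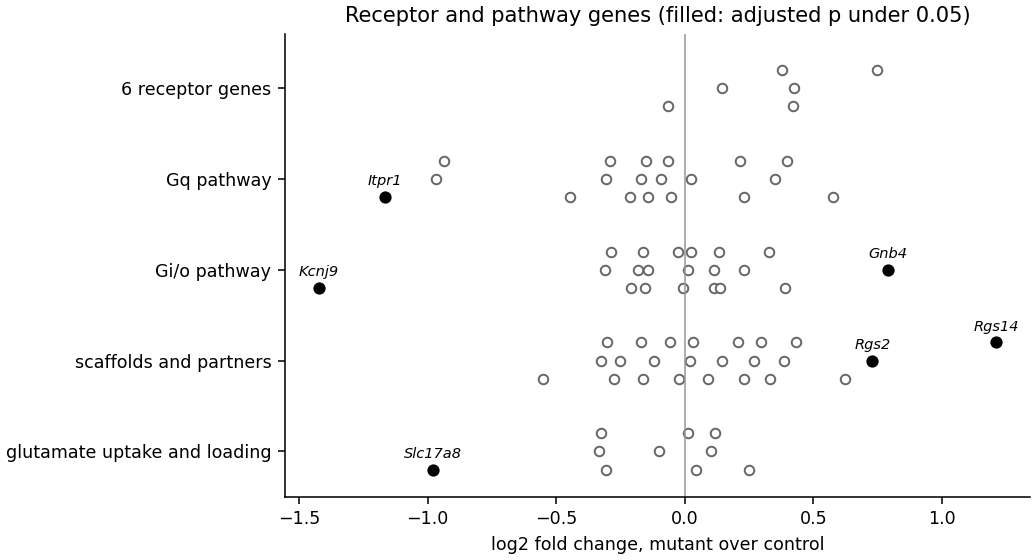
Log2 fold change of mutant over control for the 6 receptor genes and the tested genes of 4 pathway lists, 1 point per gene, with no replicate error drawn; filled, named points have an edgeR adjusted p under 0.05. The 6 named genes lie on both sides of 0, and the receptor genes range from -0.07 to 0.75.

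Markers of cell classes were set beside these values. The 7 somatostatin neuron markers summed to 527 to 608 CPM in controls and 890.4 to 1113 CPM in mutants, groups that did not overlap, with 3 genes called higher and 1 lower. Of 8 tested parvalbumin neuron markers 5 were called, all lower, among them Pvalb itself (41 ± 5.91 to 1.81 ± 0.68 CPM). The 9 markers of this list summed to 1952 to 2946 CPM in controls and 2053 to 2331 CPM in mutants, which overlapped. Kcnc2 gave 70.9% of that sum and was not called (log2 fold change 0.32, edgeR adjusted p 0.43). The other 8 genes summed to 807 to 985 CPM in controls and 356 to 430 CPM in mutants, and Cox6a2 was at 0. Astrocytes are known to express Grm3. The 9 astrocyte markers summed to 243 to 303 CPM in controls and 181 to 213 CPM in mutants, but 78% of the sum came from Slc4a4, and the other 8 genes summed to 39 to 75.7 and 47.9 to 55.8 CPM, which overlapped. Of 8 tested astrocyte markers 2 were called, Slc4a4 lower and Sox9 higher (log2 fold change 1.37, edgeR adjusted p 0.00281), and Gfap was listed at 0 in every library. Whether astrocyte nuclei have a part in the Grm3 values was not tested. Sums of glutamatergic neuron markers (91 to 163 CPM in controls, 98.5 to 158 CPM in mutants), oligodendrocyte precursor markers (13.8 to 20.2 and 13.5 to 18.8 CPM, with C1ql1 and Gpr17 at 0) and microglia markers (68 to 84.1 and 82 to 87.6 CPM, with P2ry12 at 0) overlapped between the groups. So did the sums of general GABAergic markers (2154 to 2544 and 2127 to 2559 CPM, 0 of 6 called, Dlx1 and Dlx6 at 0), VIP neuron markers (345 to 515 and 484 to 510.3 CPM, 2 called higher and 2 lower) and LAMP5 neuron markers (827 to 1014 and 974 to 1251 CPM, 1 called each way). Oligodendrocyte markers (163 to 201 and 182 to 216 CPM) and endothelial markers (48.9 to 111 and 50.4 to 75.8 CPM) overlapped too. Of the 7 oligodendrocyte markers 1 was called, Mog, which rose from 11.1 ± 2.15 CPM (SD, n = 4) to 21.2 ± 2.5 CPM (SD, n = 3; log2 fold change 0.93, edgeR adjusted p 0.00545). Among the markers at 0, Dlx1 overlaps 1 other annotated gene and Dlx6 2, so their zeros are not read as absence of RNA. The other markers at 0 (Cox6a2, Gfap, C1ql1, Gpr17 and P2ry12) were not checked for overlap, and their zeros are not read as absence either. The part of somatostatin and parvalbumin neuron markers in the receptor values was not tested.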

How the data were processed

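Per the labels' protocols, nuclear RNA was amplified with SMART-Seq v4, made into libraries with Nextera XT and sequenced as paired reads. The submitters' processing notes name Bowtie2 2.5.3 and the build GRCm38; the counting program, its strand setting and its features are not given in the sources used here. The deposited values are read counts per gene, not normalized by the authors as far as the labels record. All 55450 gene identifiers were matched to GENCODE M21. PCR copies without molecular identifiers mean that counts understate the error between molecules.

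Counts were fitted in R 4.3.3 with edgeR 4.0.16 (filterByExpr with a least count of 10 and a least total of 15, TMM, robust glmQLFit and glmQLFTest, two-sided), and genes were called at a Benjamini-Hochberg adjusted p under 0.05. The SE is the log2 fold change divided by the square root of F. Every library is from a separate mouse. The fit was tested on simulated data for this comparison: of 200 changed genes among 16180, 77 of 100 with a log2 change of 1 and 97 of 100 with 2 were recovered, with 11 false calls. The changed genes held no change smaller than 1, and no length trend was simulated. These shares therefore do not give the power for the receptor genes, whose log2 fold changes reached at most 0.75. Alternatives were DESeq2 1.42.0, limma 3.58.1 voom with sample quality weights, DESeq2 size factors, 2 other filters, the length offset (loess, span 0.5) and fits without libraries.

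The receptor genes, the 5 pathway lists, the 11 marker lists, the length offset and the libraries left out were chosen with earlier results of these data known. The text names the 6 receptor genes, every called pathway gene, Thra, Pvalb and Grm6, plus marker genes that check cell identity or lead a sum, picked after their values were seen. The naming rule also took the 3 genes most like each called receptor gene, of which there was none. A few genes of the lists are not reported here and were left out of the lists' counts.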

Additional observations from a re-analysis of the deposited data

How the results depend on the processing

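No paired analysis was possible because the groups share no replicate numbers. Over 15 alternatives Grm3 (log2 fold change 0.58 to 1.05), Grm7 (0.24 to 0.78), Grm8 (0.25 to 0.58), Grm2 (0.29 to 0.67) and Grm5 (0.03 to 0.31) stayed above 0, and Grm5 and Grm4 were called in none. Without 1 library at a time Grm3 ran from 0.58 to 1.04, Grm7 from 0.24 to 0.78, Grm8 from 0.25 to 0.58 and Grm4 from -0.148 to 0.071. The sign of Grm4 turned without control 4 (0.071) and without control 4 and mutant 8 (0.006). Calls gained were Grm3 (0.75) in DESeq2; Grm2 (0.67), Grm3 (0.85), Grm7 (0.60) and Grm8 (0.45) in limma-voom; Grm3 (0.80), Grm7 (0.51) and Grm8 (0.40) with the length offset; Grm2 (0.66), Grm3 (0.88), Grm7 (0.61) and Grm8 (0.45) without controls 1 and 4; and Grm3 (1.05), Grm7 (0.73) and Grm8 (0.56) without control 4 and mutant 8. Receptor genes called thus numbered 1, 4, 3, 4 and 3 in these 5 analyses and 0 to 3 without single libraries.

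All calls numbered 3147 in limma-voom, 2691 with the length offset, 2778 without controls 1 and 4, and 734 to 2347 without single libraries. Of all tested genes 19.1% were called in limma-voom, 16.4% with the length offset and 16.7% without controls 1 and 4. The share was 11.1% in DESeq2 and 8.53% without control 4 and mutant 8, and 1702 of 27102 genes were called without a filter. The main fit tested 19 Gq pathway, 20 Gi/o pathway, 24 scaffold and partner and 10 uptake and loading genes. Gq pathway calls were 3 in DESeq2, 5 in limma-voom, 5 with the length offset, 2 without a filter on low counts, 6 without controls 1 and 4, 2 without control 4 and mutant 8, and 1 to 5 without single libraries. Gi/o pathway calls were 4 in limma-voom and 4 without controls 1 and 4. Scaffold and partner calls were 4 in DESeq2, 4 without a filter on low counts, 8 in limma-voom, with the length offset and without controls 1 and 4, and 1 to 6 without single libraries. Uptake and loading calls were 3 without controls 1 and 4, 0 without control 4 and mutant 8, and 0 to 1 without single libraries. The cause of these shifts was not tested. Grm6, with 0 to 3 reads per library, did not pass the filter on low counts and was not tested.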
